A study of Mus musculus with 8 samples.

Results

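Wnt genes were examined in RNA-seq libraries of endometrium, the lining of the uterus, that had been cut from frozen sections by laser capture. The part of the transcriptome described here is 52 genes of the Wnt system (15 Wnt ligands, 4 R-spondins, 15 receptors, 10 secreted inhibitors and 8 feedback targets and effectors), which were found by gene symbol among the 52325 identifiers of the count table. The 8 libraries came from 4 Thra1PV/+ mice and 4 wild-type (WT) mice, all females that had been synchronized to metestrus, and no treatment is given for them. Thra1PV/+ mice carry 1 knock-in PV allele of *Thra*, the gene of thyroid hormone receptor α1, which encodes a C-terminally frame-shifted receptor with dominant negative action, beside 1 normal allele; the allele is present in the whole animal, not in the uterus alone. The strain and the ages of these 8 mice are not given in the sources used here. Library totals ranged from 48791602 to 59818887 counts. Levels below are CPM (counts scaled to the library size after its TMM correction for composition) unless another unit is named, and 1 count corresponded to 0.0175 to 0.0209 CPM.

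Wnt proteins are secreted, lipid-modified ligands that bind Frizzled receptors and the co-receptors Lrp5 and Lrp6. In the canonical branch this stabilises β-catenin, which enters the nucleus and activates target genes together with the TCF/LEF factors, and among those targets are inhibitors of the pathway itself. R-spondins strengthen the signal by binding Lgr4, Lgr5 and Lgr6 and removing Znrf3 and Rnf43, which clear Frizzled receptors from the cell surface. In the mouse uterus the pathway is known for its part in gland formation and in the exchange between epithelium and stroma.

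Before the genotypes were compared, the libraries were checked with marker genes of the cell types that such a section can hold. Simple epithelial markers (*Krt8*, *Epcam*) and stromal markers (*Col3a1*, *Hoxa10*, *Pgr*) were present in all 8 libraries, whereas of the gland markers *Foxa2* was present in all 8 and *Prss28* was at or near 0. The summed level of 13 stromal markers was highest in WT library 2, Thra1PV/+ library 1 and WT library 1, at 5776 to 6204 CPM, against 838 to 2348 CPM in the other 5. The summed level of 10 smooth muscle markers was 13540 CPM in WT library 1 and 151 to 1184 CPM in the other 7, and the muscle myosin gene *Myh11* was at 1752 CPM in WT library 1 and at 4.04 to 101 CPM elsewhere. The summed level of 15 squamous epithelial markers was 3289 to 5428 CPM in Thra1PV/+ and 57.3 to 187 CPM in WT libraries. Of these 15 genes 11 were called higher in Thra1PV/+ endometrium, among them *Ivl*, which encodes a protein of the cornified envelope. In libraries from mixed tissue, fewer cells of a type and less RNA per cell cannot be told apart.

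The RNA of these 52 genes covered a very wide range of levels, which were compared between genes as deposited TPM. In TPM, counts are scaled to transcript length and library size. The deposited values were also quantile-normalized, which gives every library nearly the same distribution. *Ctnnb1*, which encodes β-catenin, stood at 759 ± 23.9 TPM in Thra1PV/+ and 833 ± 181 TPM in WT endometrium (SD, n = 4 each), far above every other member. The order below it differed between the genotypes. In Thra1PV/+ libraries the inhibitor *Dkk3*, the ligand *Wnt4*, the inhibitor *Sfrp2* and the feedback target *Axin2* came next, with means of 48.6, 47.7, 40.6 and 40.3 TPM. In WT libraries the inhibitor *Sfrp4* came next at 94.3 ± 102 TPM (SD, n = 4), with 239 TPM in WT library 1 and 20.97 to 92.6 TPM in the other 3, where its mean in Thra1PV/+ libraries was 10.8 ± 3.25 TPM. It was followed in WT libraries by *Sfrp2* at 50.5 TPM and the receptor *Fzd6* at 38.7 TPM. The most abundant Frizzled receptor was *Fzd10* in Thra1PV/+ libraries, at 38.2 TPM against 30.0 TPM for *Fzd1* and 23.97 TPM for *Fzd6*, and *Fzd6* in WT libraries, above *Fzd1* at 29.6 TPM and *Fzd10* at 12.3 TPM. Over all 8 libraries the co-receptor *Lrp5* (28.9 TPM) lay above its relative *Lrp6* (15.99 TPM). When the means over all libraries were instead taken as CPM per kilobase of exon, *Ctnnb1* stayed first and 8 of the 10 highest genes stayed among them. *Sfrp4* moved from rank 2 to rank 9, *Axin2* from rank 6 to 13 and *Lrp5* from rank 9 to 18. The order below *Ctnnb1* is one of means and was not tested between genes. The spread was wide for some of them, with an SD for *Sfrp2* of 56.0 TPM in Thra1PV/+ and 45.4 TPM in WT libraries. At the other end were *Wnt3*, *Dkk1*, *Rspo4*, *Rspo2*, *Wnt2b*, *Sfrp5*, *Wnt3a* and *Fzd9*, all at or under 0.109 TPM on average.

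**Figure D1:**
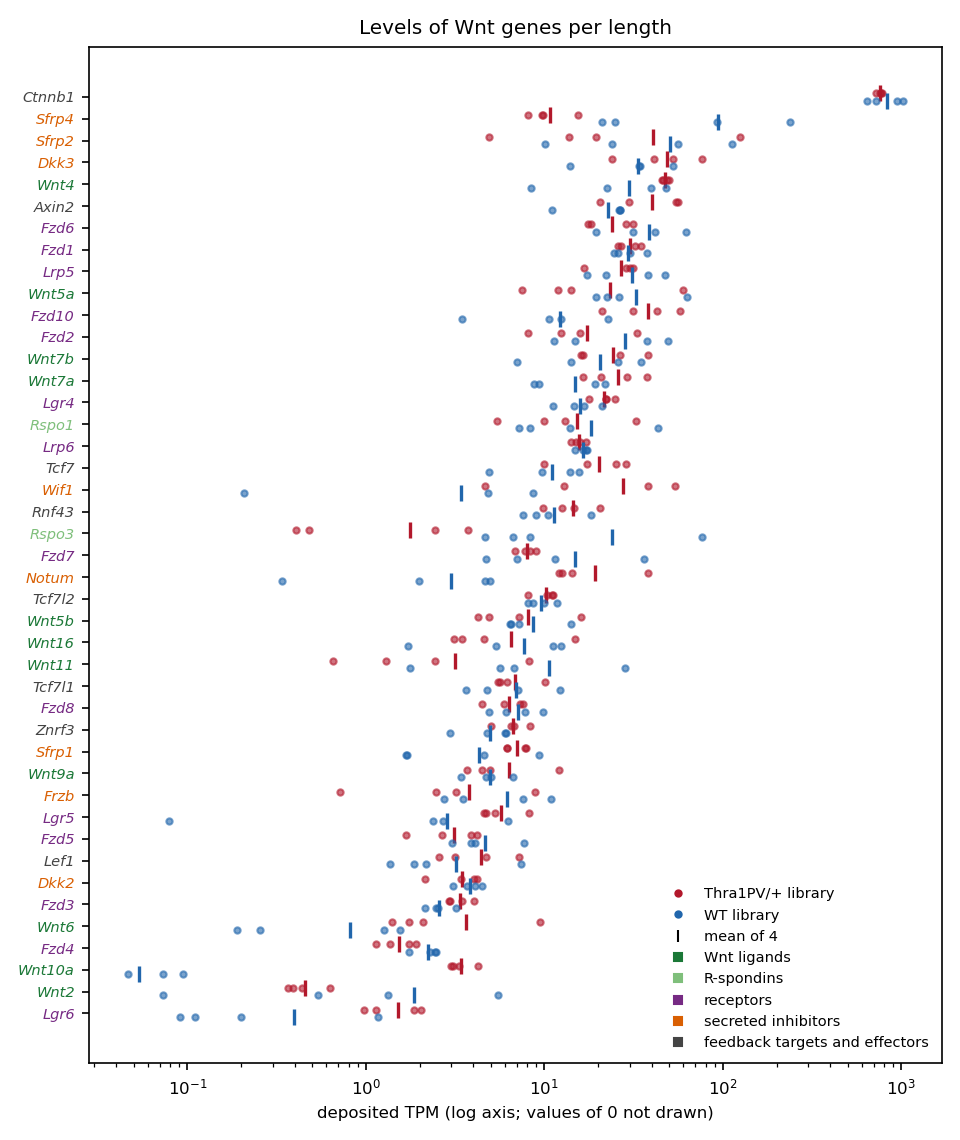
TPM of the Wnt genes with a mean of at least 0.5 TPM, on a log axis, with a point for each of the 4 Thra1PV/+ and 4 WT libraries and a bar for the mean of each genotype. *Ctnnb1* lies above all others, and the genotypes lie apart for *Wnt10a*, *Notum*, *Sfrp4* and *Rspo3*.

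Among the 15 Wnt ligands the same few genes supplied most of the RNA in both genotypes. *Wnt4*, a ligand of the female reproductive tract, made up 33.0 ± 8.41% of the summed ligand TPM in Thra1PV/+ and 23.0 ± 12.6% in WT endometrium (SD, n = 4 each). *Wnt5a*, a ligand known for β-catenin-independent signaling, made up 13.2 ± 9.25% and 24.0 ± 11.4%. *Wnt7b* took 17.3 ± 9.46% and 15.7 ± 8.71%, and *Wnt7a*, the luminal epithelial ligand needed for uterine patterning, took 17.02 ± 4.31% and 10.9 ± 3.69%. The ranges of the genotypes overlapped for all 4. The summed ligand level was 153 ± 47.8 TPM in Thra1PV/+ and 133 ± 24.7 TPM in WT libraries, also with overlapping ranges. *Wnt10a* made up 1.47 to 3.24% of the ligand TPM in Thra1PV/+ libraries and 0 to 0.0693% in WT libraries, and *Wnt3a* 0.0638 to 0.210% and 0%.

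**Figure D2:**
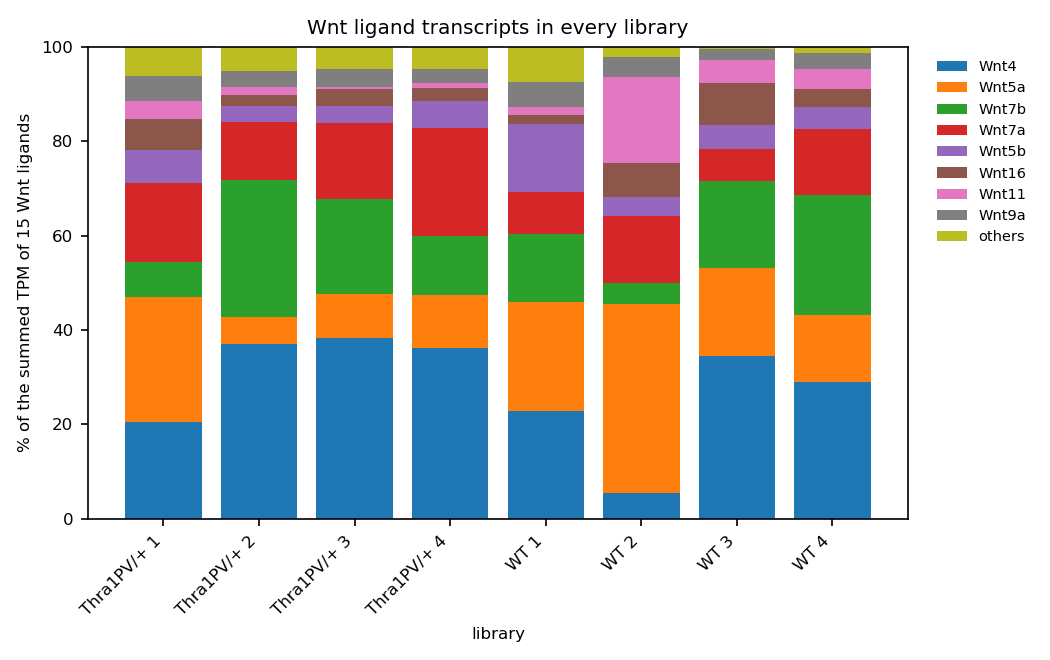
Share of each Wnt ligand in the summed TPM of the 15 Wnt ligands, in percent, stacked for each of the 8 libraries, with the 8 most abundant ligands in colour and the rest as others. *Wnt4* ranges from 5.42% in WT library 2 to 38.4% in Thra1PV/+ library 3.

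The genotypes were compared to ask which ligands, receptors, inhibitors and targets differ in the mutant endometrium. Of the 52 genes, 45 had enough counts to be tested, and the 7 that did not are *Wnt2b*, *Wnt3*, *Rspo2*, *Rspo4*, *Fzd9*, *Sfrp5* and *Dkk1*. Called genes are those whose level differed at least 2-fold with an adjusted p-value up to 0.1 in edgeR's quasi-likelihood test. Of the 45 tested genes 2 were called, *Wnt10a* and *Wnt3a*, both higher in Thra1PV/+ endometrium, and none was called lower. Among all 18174 tested genes 0.99% were called, 0.924% higher and 0.066% lower. DESeq2, which called 2.64% of the genes it tested, called 5 Wnt genes: *Wnt10a*, *Wnt3a*, *Notum* and *Fzd10* higher and *Sfrp4* lower. At an unadjusted p under 0.05 (edgeR) there were 8 of 45 Wnt genes (6 higher, 2 lower), against 9.77% of all tested genes (5.05% higher, 4.72% lower). For 5 of 45 the values of the genotypes did not overlap (3 higher, 2 lower), against 6.04% of all tested genes (3.55% higher, 2.49% lower). The signs of the fold changes were nearly balanced, with 23 positive and 22 negative, where 43.2% of all tested genes had a positive one.

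**Figure D3:**
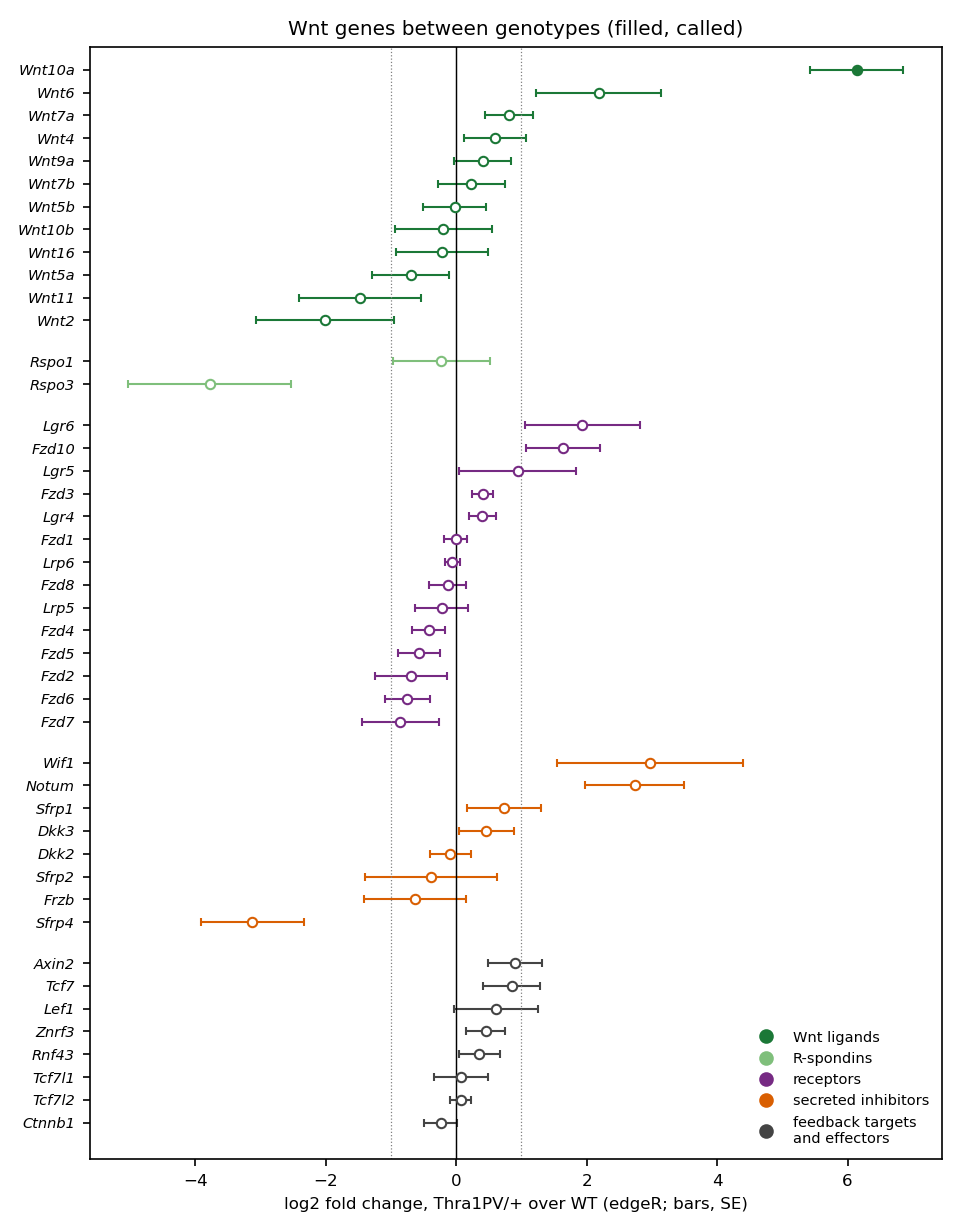
Log2 fold change of Thra1PV/+ over WT (edgeR) with its standard error for 44 tested Wnt genes, sorted within their classes; filled points were called and dotted lines mark a fold change of 2. *Wnt3a* is not drawn because all its WT values are 0, and *Wnt10a* is the only filled point.

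*Wnt10a*, a canonical ligand known from skin, hair and teeth, showed the clearest difference of any Wnt gene. It lies on chromosome 1 (GRCm38 74791516 to 74804179, plus strand). Its level was 5.58, 5.11, 4.03 and 3.89 CPM in Thra1PV/+ libraries 1 to 4, and 0, 0.0722, 0.0796 and 0.105 CPM in WT libraries 1 to 4. All 4 mutant libraries lay close together and far above every WT library, in which the gene had 0 to 5 counts. Its log2 fold change was 6.14 ± 0.71 (SE) with an adjusted p-value of 0.0108 (edgeR), from means of 4.65 ± 0.828 and 0.0641 ± 0.0449 CPM (SD, n = 4 each). The gene was called in all 8 fits that left out 1 library, with adjusted p-values of 0.00257 to 0.0475, and by DESeq2 (adjusted p = 3.44e-33).

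*Wnt3a*, a canonical ligand used in culture to keep stem cells dividing, was detected in the mutant libraries only. It had 18, 14, 28 and 27 counts in Thra1PV/+ libraries 1 to 4 (0.331, 0.284, 0.572 and 0.473 CPM) and 0 counts in each WT library. The groups did not overlap, but the level was low throughout, at 0.191 ± 0.0646 TPM in Thra1PV/+ libraries (SD, n = 4). Against a floor of 3 counts in each WT library, equal to 0.0585 CPM on average, the mean was at least 7.10-fold higher. The adjusted p-value was 0.0268 (edgeR) and 5.89e-07 (DESeq2). The call was lost without Thra1PV/+ library 3 (adjusted p = 0.115) and without Thra1PV/+ library 4 (adjusted p = 0.104), and the other 6 fits without 1 library kept it.

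Between the genotypes the levels of *Wnt10a* and *Wnt3a* moved with the squamous markers given above, which separated the same 2 sets of 4 libraries. Among the mutant libraries *Wnt10a* was highest by CPM in library 1, where the summed squamous markers were lowest (3289 CPM). It was lower in library 3, where they were highest (5428 CPM). By TPM *Wnt10a* was highest in library 2, at 4.27 TPM against 3.01 to 3.32 TPM in the other mutant libraries. The summed squamous markers of library 2 were at 5314 CPM. None of the 15 squamous markers was at 0 in all WT libraries, but *Krt14* and *Dsc3* were at 0 in WT library 1 and *Ivl* in WT library 2. The part of squamous epithelium in the 2 calls was not tested.

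*Wnt6* is the neighbour of *Wnt10a* on chromosome 1, where 6193 bases and no other protein-coding gene separate them. Its values were 11.4, 1.52, 1.98 and 2.47 CPM in Thra1PV/+ libraries 1 to 4 and 1.47, 1.90, 0.259 and 0.188 CPM in WT libraries 1 to 4. The groups overlapped, and Thra1PV/+ library 1 was far above the others. That library also had the highest summed stromal markers of the mutant libraries, at 6204 CPM against 838 to 1862 CPM. Among the WT libraries, 1 and 2 were highest both in *Wnt6* and in these markers. The part of stroma in the *Wnt6* values was not tested. With all libraries the log2 fold change was 2.18 ± 0.95 (SE) with an unadjusted p of 0.0498 and an adjusted p of 0.511 (edgeR), and without Thra1PV/+ library 1 it was 1.11. *Wnt9a*, which lies 16175 bases from *Wnt3a* on chromosome 11, had a log2 fold change of 0.40 ± 0.44 (SE) and an adjusted p of 0.834.

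RefSeq promoter windows on GRCm38.p6 were held for 35 of the 52 genes, and the 250 bases before the start were searched on both strands for CTTTGAT and CTTTGAA, 2 forms of the 7-letter core that TCF/LEF factors bind. Of the 35 genes 7 had several windows, and a gene was counted where any of its windows held the letters. The letters were found for 3 of the 35 genes, *Wnt5b*, *Wnt11* and *Dkk1*, or 8.57%, against 8.63% of all 27025 symbols with such windows. For *Wnt5b* and *Wnt11* other windows of the same gene held none. The windows of the Wnt genes were rich in G and C, with a median of 66.4% against 52.4% over all windows. They are shown for *Wnt3a*, the called gene with a window (87.6% G and C), for *Axin2*, the classical target of the pathway (69.2%), and for *Wnt11*, as the window that holds the motif on the minus strand. In the 3 sequences, written 5′ to 3′ in the direction of the gene, capitals mark that motif, and *Wnt3a* and *Axin2* hold none in these letters. The windows lie at chr11:59290752-59291001 (minus strand), chr11:108920099-108920348 (plus strand) and chr7:98834862-98835111 (plus strand).
Wnt3a: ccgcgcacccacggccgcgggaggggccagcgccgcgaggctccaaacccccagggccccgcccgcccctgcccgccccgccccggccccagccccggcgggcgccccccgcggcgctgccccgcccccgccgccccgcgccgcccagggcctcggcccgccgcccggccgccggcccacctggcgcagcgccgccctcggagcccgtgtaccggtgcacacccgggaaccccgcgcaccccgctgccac
Axin2: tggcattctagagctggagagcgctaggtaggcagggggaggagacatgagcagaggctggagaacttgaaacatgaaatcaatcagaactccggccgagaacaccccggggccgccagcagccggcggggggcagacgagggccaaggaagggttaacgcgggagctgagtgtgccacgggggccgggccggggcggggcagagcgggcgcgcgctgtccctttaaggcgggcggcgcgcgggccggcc
Wnt11: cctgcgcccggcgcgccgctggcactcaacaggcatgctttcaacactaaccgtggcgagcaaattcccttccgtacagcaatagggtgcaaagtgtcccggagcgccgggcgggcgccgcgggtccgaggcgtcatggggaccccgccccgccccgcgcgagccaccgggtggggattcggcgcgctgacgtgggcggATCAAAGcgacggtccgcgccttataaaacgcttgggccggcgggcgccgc

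The R-spondins were represented by *Rspo1* and *Rspo3*, since *Rspo2* and *Rspo4* had at most 15 counts in any library. *Rspo3*, a secreted enhancer of Wnt signaling, was at 6.81, 1.08, 0.940 and 9.12 CPM in Thra1PV/+ libraries 1 to 4 and at 202, 16.1, 9.79 and 19.0 CPM in WT libraries 1 to 4. All WT values lay above all mutant values, and WT library 1 stood far above the other 3. The log2 fold change was -3.78 ± 1.25 (SE) with an unadjusted p of 0.0156 and an adjusted p of 0.360 (edgeR), and it was -1.70 without WT library 1. DESeq2 gave a log2 fold change of -3.76 but no adjusted p for this gene, so it could not be called there. In WT library 1 the 10 smooth muscle markers were also highest, as were the summed ciliated epithelial, blood endothelial and blood markers. The summed smooth muscle markers were 13540, 769, 590 and 1184 CPM in WT libraries 1 to 4, the same order as *Rspo3*. In Thra1PV/+ libraries 1 to 4 they were 428, 151, 189 and 708 CPM, with library 4 highest and library 1 next, as for *Rspo3*. The summed ciliated epithelial markers shared the order of the WT libraries but were highest in library 1 of the mutant libraries. The part of these cell types in the *Rspo3* values was not tested. *Rspo1* was at 41.8, 5.22, 11.3 and 16.5 CPM in Thra1PV/+ and at 50.9, 18.6, 8.75 and 9.44 CPM in WT libraries 1 to 4. Library 1 of each genotype was highest and the groups overlapped, and the log2 fold change was -0.23 ± 0.75 (SE).

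Over the 15 tested ligands, R-spondins included, the median log2 fold change was -0.02, against -0.05 over all tested genes. It ranged from -0.42 to 0.35 over the 8 fits that each left out 1 library, so it had no stable sign. The extremes were *Wnt10a* and *Wnt3a* on the high side and *Rspo3* (-3.78), *Wnt2* (-2.01 ± 1.06, SE) and *Wnt11* (-1.48 ± 0.94, SE) on the low side. The low value of *Wnt2* rested on WT library 1, at 9.56 CPM where WT libraries 2 to 4 had 0.0995 to 1.97 CPM, and was -0.34 without it. That of *Wnt11* rested on WT library 2, at 24.4 CPM where the other WT libraries had 2.04 to 5.27 CPM, and was -0.18 without it. The 2 most abundant ligands were not called. *Wnt4* was at 155, 181, 186 and 159 CPM in Thra1PV/+ and at 79.2, 30.7, 190 and 150.2 CPM in WT libraries 1 to 4. The mutant libraries were within a narrow band that the WT libraries spanned and exceeded, and the log2 fold change was 0.60 ± 0.47 (SE). *Wnt5a* was at 183, 31.2, 46.3 and 57.8 CPM in Thra1PV/+ and at 98.5, 228, 114 and 76.0 CPM in WT libraries 1 to 4. The highest library of each genotype was among the 3 with the highest stromal markers, the groups overlapped, and the log2 fold change was -0.70 ± 0.58 (SE). It was -1.47 without Thra1PV/+ library 1 (unadjusted p = 0.00795, edgeR) and -0.25 without WT library 2. *Wnt7a* had 0.81 ± 0.36 (SE) with an adjusted p of 0.528.

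**Figure D4:**
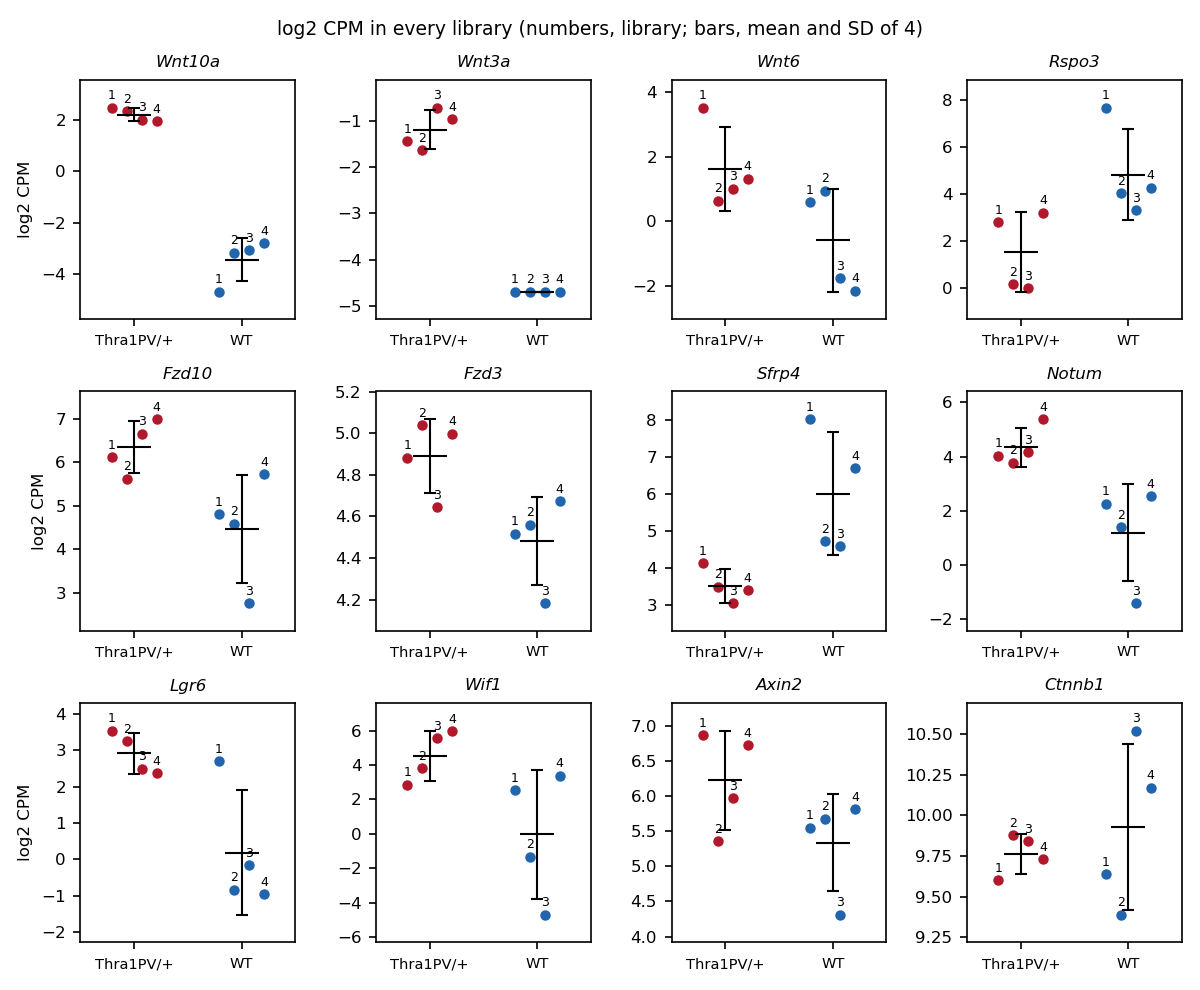
Log2 CPM (prior count 2) of 12 Wnt genes in every library, with numbered points for libraries 1 to 4 of each genotype and bars for the mean and SD of 4. *Wnt10a*, *Wnt3a*, *Notum*, *Sfrp4* and *Rspo3* do not overlap between genotypes, and WT library 1 stands apart from the other WT libraries for *Rspo3* and *Lgr6*.

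No receptor was called. Of the 14 tested receptors, 5 had a positive and 9 a negative fold change, 2 had an unadjusted p under 0.05 (*Fzd10* and *Fzd3*, both higher), and the median log2 fold change was -0.10, with -0.16 to 0.02 over the fits that left out 1 library. *Fzd10*, a Frizzled receptor of restricted expression, was at 69.3, 49.4, 101 and 127 CPM in Thra1PV/+ libraries 1 to 4 and at 27.8, 24.0, 6.72 and 53.1 CPM in WT libraries 1 to 4. WT library 4 lay above Thra1PV/+ library 2 and was the sole overlap, while WT library 3 was lowest of all. Its log2 fold change was 1.64 ± 0.56 (SE) with an adjusted p of 0.382 (edgeR), where DESeq2 gave 0.0984 and passed the threshold. *Fzd10* made up 28.4 ± 7.95% of the summed TPM of the 10 Frizzled receptors in Thra1PV/+ and 8.64 ± 5.82% in WT endometrium (SD, n = 4 each), with ranges of 21.1 to 36.3% and 3.10 to 16.8% that did not overlap. *Fzd3* was at 29.5, 32.8, 25.0 and 31.9 CPM in Thra1PV/+ and at 22.9, 23.5, 18.1 and 25.5 CPM in WT libraries 1 to 4. The difference was small and the groups overlapped by 1 library on each side, with a log2 fold change of 0.40 ± 0.15 (SE) and an adjusted p of 0.437.

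None of the other receptors had an unadjusted p under 0.05. *Fzd1* was at 89.4, 73.5, 71.1 and 83.01 CPM in Thra1PV/+ and at 78.8, 62.1, 73.7 and 104 CPM in WT libraries 1 to 4, with a log2 fold change of -0.01 ± 0.17 (SE). *Fzd6* was at 79.6, 51.8, 53.7 and 88.9 CPM in Thra1PV/+ and at 59.8, 175, 132 and 92.8 CPM in WT libraries 1 to 4. Of the 4 WT libraries 3 were above all mutant libraries, but WT library 1 was within their range, and the log2 fold change was -0.75 ± 0.34 (SE), with an unadjusted p of 0.0569 and an adjusted p of 0.532 (edgeR). Without WT library 2 it was -0.44. *Lrp6* had the narrowest spread, with -0.06 ± 0.11 (SE), and *Lrp5* had -0.22 ± 0.41 (SE). The summed TPM of the 10 Frizzled receptors was 132 ± 28.1 in Thra1PV/+ and 141 ± 22.9 in WT libraries (SD, n = 4 each), with overlapping ranges.

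The R-spondin receptors had positive fold changes without a call. *Lgr6*, a stem cell marker of skin and other stratified epithelia, was chosen for description after its values were seen. It was at 11.5, 9.46, 5.58 and 5.13 CPM in Thra1PV/+ libraries 1 to 4 and at 6.43, 0.524, 0.855 and 0.481 CPM in WT libraries 1 to 4. WT library 1 alone reached the mutant range, and the other 3 WT libraries lay below every mutant library. In edgeR's test the log2 fold change was 1.93 ± 0.88 (SE) with an adjusted p of 0.533. Without WT library 1 it was 3.71 with an adjusted p of 0.0174, and the gene was then called. It was also called by limma voom with sample quality weights (log2 fold change 2.91, adjusted p = 0.0908). *Lgr5*, a target of the pathway and stem cell marker of intestine, had 0.94 ± 0.89 (SE), and *Lgr4* had 0.40 ± 0.21 (SE). *Lgr5* was at 14.2 to 25.3 CPM in Thra1PV/+ and at 8.53, 9.03, 0.219 and 19.1 CPM in WT libraries 1 to 4, so that WT library 3 held almost none of it.

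Of the 8 tested secreted inhibitors 4 had a positive and 4 a negative fold change, and none was called by edgeR. Their median log2 fold change was 0.18, with 0.03 to 0.43 over the fits that left out 1 library and -0.08 with a filter of at least 10 counts in every library. They contained *Notum* and *Sfrp4*, which DESeq2 called in opposite directions. *Notum* encodes a secreted enzyme that removes the lipid from Wnt ligands and is itself a target of the pathway. It was at 16.4, 13.7, 18.0 and 41.7 CPM in Thra1PV/+ libraries 1 to 4 and at 4.75, 2.62, 0.338 and 5.78 CPM in WT libraries 1 to 4. Every mutant library lay above every WT library, with Thra1PV/+ library 4 highest and WT library 3 lowest. The log2 fold change was 2.73 ± 0.76 (SE), with an unadjusted p of 0.00671 and an adjusted p of 0.266 (edgeR), while DESeq2 gave an adjusted p of 0.00707. Without WT library 3 the log2 fold change was 2.37.

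*Sfrp4*, a secreted Frizzled-related protein that binds Wnt ligands, was at 17.7, 11.4, 8.30 and 10.7 CPM in Thra1PV/+ libraries 1 to 4 and at 263, 26.6, 24.4 and 105 CPM in WT libraries 1 to 4. Every WT library lay above every mutant library, and WT libraries 1 and 4 were far above WT libraries 2 and 3. The log2 fold change was -3.12 ± 0.78 (SE), with an unadjusted p of 0.00370 and an adjusted p of 0.198 (edgeR), while DESeq2 gave 0.00126. Without WT library 1, the library with the highest smooth muscle markers, the log2 fold change was -2.08 and the groups still did not overlap. The summed smooth muscle markers were 151 to 708 CPM in Thra1PV/+ and 590 to 13540 CPM in WT libraries. Of those 10 genes 9 had a lower value in Thra1PV/+ at an unadjusted p under 0.05 and none was called, and none was at 0 in all libraries of a genotype. The summed level of 7 ciliated epithelial markers was 4.46 to 8.04 CPM in Thra1PV/+ and 15.7 to 30.5 CPM in WT libraries, without overlap. Of the 5 of them that were tested, 1 was called lower. The part of muscle and of ciliated cells in the *Sfrp4* values was not tested. *Sfrp4* took 7.69 ± 3.72% of the summed TPM of the 10 secreted inhibitors in Thra1PV/+ and 42.0 ± 21.4% in WT libraries (SD, n = 4 each), with ranges of 5.16 to 13.2% and 13.3 to 62.6% that did not overlap.

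The other inhibitors were not called. *Sfrp2* was at 133, 5.38, 16.8 and 22.6 CPM in Thra1PV/+ and at 66.0, 124, 11.9 and 29.1 CPM in WT libraries 1 to 4. Its 3 highest libraries were the 3 with the highest stromal markers, from both genotypes, and its log2 fold change was -0.38 ± 1.01 (SE). *Wif1*, which binds Wnt ligands outside the cell, was at 7.18, 13.96, 46.4 and 61.8 CPM in Thra1PV/+ and at 5.72, 0.361, 0 and 10.3 CPM in WT libraries 1 to 4. It was chosen for description after its values were seen, as the inhibitor with the highest fold change (log2 2.98 ± 1.43, SE), and had 1 WT library above the lowest mutant library and an adjusted p of 0.563. *Dkk1* had no count in the mutant and at most 1 in any WT library, whereas *Dkk3*, a divergent relative, had a log2 fold change of 0.46 ± 0.42 (SE).

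The feedback targets and effectors were not called, and none had an unadjusted p under 0.05. Their fold changes were positive in 7 of 8, with a median log2 fold change of 0.41, against -0.05 over all tested genes. The median was lowest without Thra1PV/+ library 4 and without WT library 3 (0.25 each) and highest without WT library 1 (0.52). *Axin2*, the scaffold of the β-catenin destruction complex and the usual readout of canonical signaling, was at 116, 40.8, 62.4 and 106 CPM in Thra1PV/+ libraries 1 to 4 and at 46.8, 51.1, 19.8 and 56.2 CPM in WT libraries 1 to 4. Of the mutant libraries 3 were above all WT libraries, Thra1PV/+ library 2 was within the WT range, and WT library 3 was lowest. For *Axin2* the log2 fold change was 0.90 ± 0.41 (SE), with an unadjusted p of 0.0569 and an adjusted p of 0.532 (edgeR). *Tcf7* had 0.85 ± 0.43, *Lef1* 0.61 ± 0.65, *Znrf3* 0.45 ± 0.30 and *Rnf43* 0.36 ± 0.32 (log2 fold change ± SE). *Tcf7l1* and *Tcf7l2*, TCF factors that also act as repressors, had 0.07 ± 0.41 and 0.07 ± 0.16. *Ctnnb1* was at 775, 940.2, 916 and 849 CPM in Thra1PV/+ and at 796, 670.0, 1470 and 1156 CPM in WT libraries 1 to 4. The mutant libraries were within the WT range, and the log2 fold change of its RNA was -0.23 ± 0.25 (SE).

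WT library 3 recurred as the lowest library. It held the lowest value of 14 of the 45 tested Wnt genes (31.1%), against 16.9% of all tested genes, and these included *Axin2*, *Tcf7*, *Lef1*, *Znrf3*, *Notum*, *Wif1*, *Lgr5* and *Fzd10*. *Cxcl15*, a gland gene, was at 0.259 CPM in this library and at 25.2 to 122 CPM in the other 7, and *Foxa2* was at 12.2 CPM in it and at 12.96 to 35.1 CPM in the others. The 4 tested gland markers did not share this order, since *Sox17* and *Lif* were lowest in other WT libraries and the summed gland markers of WT library 3 (167 CPM) were within the range of the other 7 (159.7 to 505 CPM). The summed level of 9 T cell markers, which do not include *Tcf7* and *Lef1*, was 28.98, 8.28, 21.2 and 34.95 CPM in Thra1PV/+ and 16.7, 10.9, 5.07 and 14.1 CPM in WT libraries 1 to 4. It was lowest in WT library 3 and, among the mutant libraries, in library 2, as were the *Axin2*, *Tcf7* and *Lef1* values. Within each genotype, the summed stromal, smooth muscle, blood endothelial, macrophage and blood markers were lowest in these same libraries. The summed simple epithelial markers went the other way in WT library 3, which was highest of all 8 at 8588 CPM, against 2847 to 7490 CPM in the other 7. Of the 9 T cell markers 8 had a positive fold change (median log2 1.20), 5 had an unadjusted p under 0.05, all higher in Thra1PV/+, none was called and none was at 0 in any library. Thra1PV/+ library 1 held the highest value of 14 of the 45 (31.1%), against 14.7% of all tested genes. Without WT library 3 the log2 fold changes of *Axin2*, *Tcf7* and *Lef1* were 0.68, 0.60 and 0.35, and without Thra1PV/+ library 1 they were 0.72, 0.70 and 0.21. They were higher without Thra1PV/+ library 2 (1.12, 1.08 and 0.82) and without WT library 2 (1.01, 1.08 and 1.51). The part of gland tissue, of T cells and of the other cell types in these values was not tested.

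For *Wnt9a*, *Wnt10b*, *Rspo1*, *Fzd2*, *Sfrp2*, *Frzb*, *Dkk2* and *Tcf7l1*, the 3 highest libraries were the 3 with the highest stromal markers (WT libraries 1 and 2 and Thra1PV/+ library 1). That is 8 of 45 genes (17.8%), near the 13.7% of all tested genes with these 3 libraries on top. For *Lrp5*, *Tcf7l2* and *Ctnnb1*, 3 of 45 genes, the same 3 libraries were the lowest, against 9.67% of all tested genes. The 13 stromal markers all had a negative fold change, with a median of -0.35, and 1 of them had an unadjusted p under 0.05.

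**Figure D5:**
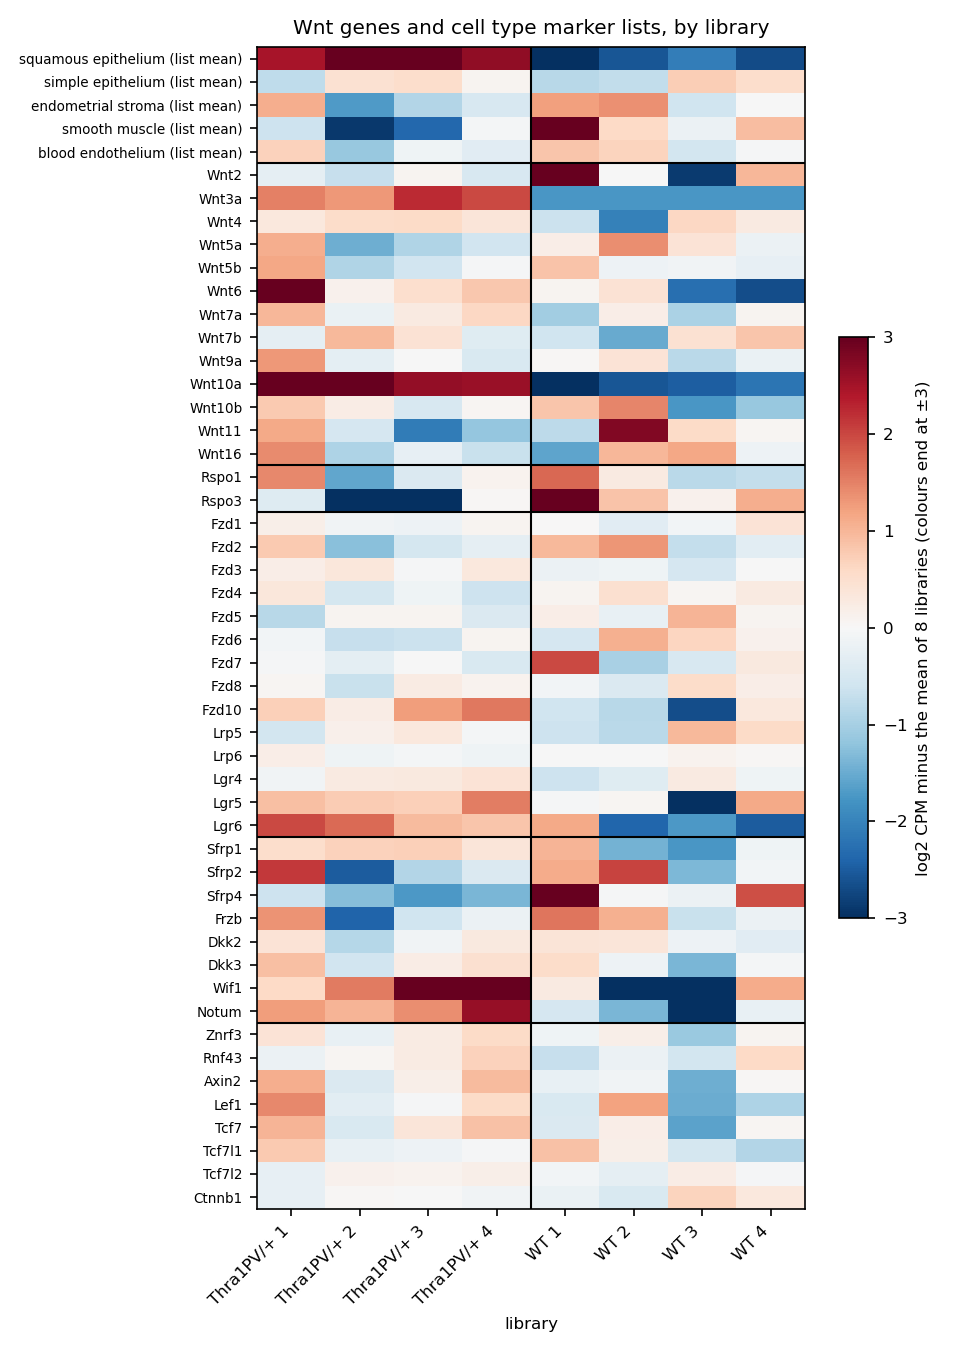
Log2 CPM of 45 Wnt genes and the mean log2 CPM of 5 marker lists in the 8 libraries, each row minus its own mean, from blue (lower) to red (higher) with colours ending at ±3 and black lines between classes and genotypes. *Wnt10a* and *Wnt3a* share the split of the squamous markers, WT library 1 is red for *Rspo3*, *Sfrp4* and *Wnt2* with the smooth muscle markers, and WT library 3 is blue for *Notum*, *Wif1* and *Lgr5*.

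A further 85 genes of the pathway were examined beside the 52, of which 75 were tested and none was called (0.99% of all tested genes were). At an unadjusted p under 0.05 there were 5, all higher in Thra1PV/+, or 6.67% against 9.77% of all tested genes, and 35 of the 75 had a positive fold change. *Ephb3*, a receptor tyrosine kinase and target of the pathway in intestine, was at 60.9, 81.5, 74.9 and 66.0 CPM in Thra1PV/+ and at 41.1, 33.1, 44.3 and 41.6 CPM in WT libraries 1 to 4. The groups lay clearly apart, with a log2 fold change of 0.82 ± 0.14 (SE) and an adjusted p of 0.0529 (edgeR), and the gene was left uncalled by its fold change of 1.77 alone. *Tsku*, a secreted proteoglycan that binds Frizzled, was at 40.8, 43.9, 35.8 and 34.9 CPM in Thra1PV/+ and at 19.9, 30.0, 7.74 and 13.4 CPM in WT libraries 1 to 4. These groups did not overlap either, and the log2 fold change was 1.13 ± 0.37 (SE, adjusted p = 0.352). *Cd44* (1.29 ± 0.47), *Vangl1* (0.47 ± 0.20) and *Tpbg* (0.43 ± 0.18), given as log2 fold change ± SE, had adjusted p-values of 0.413 to 0.499.

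In the lists of the cytoplasmic relay (17 tested) and the nuclear cofactors (14 tested) none had an unadjusted p under 0.05, with medians of 0.04 and -0.04. *Porcn* and *Wls*, which modify and export Wnt ligands, had log2 fold changes of -0.78 ± 0.49 and -0.04 ± 0.23. Of the 4 Wnt ligands outside the 52, *Wnt1* had no count in any library, and *Wnt8a*, *Wnt8b* and *Wnt9b* had at most 4.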

How the data were processed

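Libraries of laser-captured endometrium from 4 Thra1PV/+ and 4 WT mice were made with a stranded mRNA kit for paired-end sequencing. Per the labels and the study's methods, the authors trimmed reads with Trimmomatic and quantified transcripts with Salmon on mouse genome mm10, and versions are not given in the sources used here. The authors deposited a table of expected counts that was not normalized and a table of TPM. The sorted TPM values differ by at most 0.2905 between libraries at a rank, so that the deposited TPM are quantile-normalized. A further column of the TPM table (1 column) matches no sample here and was not used. Groups were taken from the genotype label, which gives no batch or date.

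From the deposited expected counts, rounded to whole numbers, edgeR 4.0.16 (R 4.3.3) tested 18174 of 52325 identifiers (filterByExpr, minimum count 10, minimum total 15; TMM; quasi-likelihood test; Benjamini-Hochberg adjustment over all tested genes). Called genes differed at least 2-fold with an adjusted p up to 0.1. CPM values are scaled by TMM, log2 CPM has a prior count of 2, and the SE of a fold change was derived from its F statistic. The floor is 3 counts in each library, covers counting error only, and depth limits values below it. Alternatives were DESeq2 1.42.0, limma 3.58.1 (voom, or log2 of TPM plus 1 or 0.1), other scalings, filters and thresholds, robust dispersion, the replicate block and each library left out. Scripts were tested on simulated data. No pair of libraries of the same genotype agreed within sampling noise, and pairs between genotypes were not checked.

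The Wnt genes and the pathway and marker lists were chosen with earlier results of these data known, and the lists were written from general knowledge. Values in every library are given for Wnt genes that were called, had an unadjusted p under 0.05 or did not overlap, and for the 2 most abundant tested genes of each class; pathway genes are named where called or at an unadjusted p under 0.05, and up to 3 genes of a marker list. Others named were chosen after their values were seen. Positions are from GENCODE M21 (GRCm38), where 49 of the 52 genes have the same identifier version, and promoters from RefSeq. No library had more than 0.00897% of its counts on identifiers lacking a symbol.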

Additional observations from a re-analysis of the deposited data

Results flagged for a closer look

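In each genotype, the log2 CPM of every tested Wnt gene was examined for a library far from the other 3, which gave 90 groups of 4, of which chance alone would mark about 1 in 20. The test marked 1 group. *Wnt5b* was at 4.49 (log2 CPM) in WT library 1, against 3.38 to 3.53 in the other WT libraries, and that gap was 0.861 of the whole range, past the critical value of Dixon's test for 4 values. The same library had the highest summed smooth muscle, ciliated epithelial, blood endothelial and blood markers, and their part in this value was not tested.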

How the results depend on the processing

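The 3 other scalings called 182 to 211 genes and 2 Wnt genes each. DESeq2 called 793 genes, 5 Wnt genes and 1 further pathway gene (*Tsku*), where edgeR called 180, 2 and 0, and voom with quality weights called 311 genes, with 15 Wnt genes at an unadjusted p under 0.05. A filter of at least 10 counts in every library called 81 genes and 0 Wnt genes, with 5 at an unadjusted p under 0.05, and by its construction it removes *Wnt10a* and *Wnt3a*; a filter of at least 1 count in any library put 13 Wnt genes at an unadjusted p under 0.05. On log2 of TPM plus 1, 119 genes and 1 Wnt gene were called, and 1 Wnt gene with a minimum mean of 0.5 TPM. With no fold change threshold at an adjusted p of 0.1, 1 further pathway gene (*Ephb3*) was called. Leaving out each library gave 81 to 167 called genes, 1 to 3 called Wnt genes, 6 to 11 at an unadjusted p under 0.05 and 0 further pathway genes. The lowest number of called genes came without Thra1PV/+ library 3 (81), and 114 and 116 were called without WT library 4 and without Thra1PV/+ library 2. Without Thra1PV/+ library 1 and WT library 1 together, chosen after seeing the data, 3 Wnt genes were called.

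The replicate numbers showed no pairing in expression. The correlations of same-numbered libraries were 0.269, -0.436, 0.340 and -0.159, and only Thra1PV/+ library 3 correlated best with its own number. Tissue content also enters these correlations, so they cannot tell whether same-numbered samples were handled together. With the replicate block 82 genes and 1 Wnt gene (*Wnt10a*) were called, and 11 Wnt genes had an unadjusted p under 0.05.

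Of 437 recomputed log2 fold changes of 21 named genes, 411 kept their direction and their side of the thresholds. These 411 include *Rspo3* by DESeq2, which had no adjusted p. A further 4 lost a call (*Wnt3a* in 4 settings), 4 gained one (*Fzd10*, *Sfrp4*, *Notum* and *Tsku* by DESeq2), and 18 changed sign, none of them called. *Lgr6* and *Wif1*, which were chosen after their values were seen, are not among the 21. *Lgr6* gained a call without WT library 1, by voom with quality weights, and without Thra1PV/+ library 1 and WT library 1 together. *Fzd1*, at -0.01, was 0.0172 by DESeq2, 0.0149 with its size factors, 0.0352 with upper quartile, 0.0835 with library size only, 0.0181 with at least 1 count in any library, 0.00422 with at least 10 counts, 0.0132 with the replicate block, 0.0309 on log2 of TPM plus 1 (0.0309 also with the minimum of 0.5 TPM), 0.0321 with TPM plus 0.1, and -0.078 to 0.147 with a library left out. The range with a library left out was -0.95 to 0.65 for *Rspo1*, -1.91 to 0.33 for *Sfrp2* and -0.356 to 0.0123 for *Ctnnb1*. The cause was not tested in any of these cases.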
